A study of Mus musculus with 4 samples.

Results

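Transcripts of Gdf15 and of 8 genes of the integrated stress response were followed in CSF1R+ myeloid cells of the mouse heart. The 9 genes were chosen by name from the 31053 genes of the deposited matrices, and all 9 were found. They are Gdf15, Atf4, Ddit3, Trib3, Ddit4, Chac1, Asns, Sesn2 and Atf5.

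In the integrated stress response, kinases that sense unfolded protein, amino acid shortage, heme shortage or double-stranded RNA phosphorylate the initiation factor eIF2. General translation then slows, while translation of the transcription factor ATF4 rises, and ATF4 switches on genes for amino acid supply, redox balance and, when stress persists, cell death. Gdf15 encodes growth differentiation factor 15, a secreted stress cytokine of the TGF-β superfamily that reduces food intake through the receptor GFRAL in the hindbrain and rises in injured heart. ATF4 and CHOP can induce it, and so can p53. Because ATF4 is controlled largely at translation, its transcript need not follow its protein, which was not measured.

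The mice carried the CSF1R-EGFP+ genotype, in which the Csf1r promoter drives EGFP in mononuclear phagocytes, and all were 12 to 16 weeks old. EGFP+ Ly6G- cells were sorted after enzymatic digestion of the heart, a gate meant to leave out neutrophils, and were sequenced with droplet libraries that read the 3' end of each transcript. The baseline group (No surgery) was 1 library of 3 pooled hearts. The infarct group (Surgery, left coronary artery ligation) was 3 libraries of 1 heart each, taken 7 days after occlusion. Cells were kept with between 500 and 40000 UMIs (unique molecular identifiers, which count molecules) and with more than 200 genes. This left 10238 baseline cells and 10117 to 10782 cells per infarct library. Their median depth was 6398.5 UMIs at baseline and 8469.5 to 8556.5 UMIs in the infarct libraries, and any pair of libraries shared 26 to 34 barcodes. Marker transcripts of mononuclear phagocytes prevailed. The 6 macrophage markers summed to 10267 to 16060 CPM, the 5 granulocyte markers to 196 to 248 CPM, and the 4 T and NK cell markers to 0.656 to 1.32 CPM. CPM, the usual depth-scaled counts, are UMIs of a gene brought to the same total of UMIs in every sum, with mitochondrial genes left out of that total.

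The genes lie on 7 mouse chromosomes (mm10). Gdf15 spans chr8:70629393-70632456 on the minus strand, Atf4 chr15:80255184-80257541 on the plus strand, and Ddit3, which encodes CHOP, chr10:127290774-127296288 on the plus strand. Ddit4 lies on the same chromosome as Ddit3, at chr10:59949669-59951834 (minus strand), and Trib3 and Chac1 share another, at chr2:152337422-152344032 (minus) and chr2:119351229-119354381 (plus). Asns spans chr6:7675169-7693254, Sesn2 chr4:132492032-132510501 and Atf5 chr7:44812256-44816658, all on the minus strand.

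ATF4 binds DNA with C/EBP partners at composite C/EBP-ATF elements, so the members' promoters were searched for such letters. The pattern TGATGNAA, or its reverse complement TTNCATCA, was looked for in the 250 bases before each RefSeq gene start (GRCm38.p6). It was present in 3.45% of 32851 promoters. Of the 9 members, all of which had a promoter in the table, Chac1 and Asns held it, 193 and 23 bases before the start. The Gdf15 window held none, which says only that these letters are not in this stretch. Among the ATF4 and CHOP partners and targets that are not members, 6 of 18 with a promoter held it. Atf3 and Slc7a11 are shown because they rose in the comparison by Gdf15 described later. The other holders, Fgf21, Nupr1, Pycr1 and Vldlr, gave no call in that comparison over all macrophages. Cebpb, Slc3a2 and Slc38a2 were called higher in it and were not among the holders. The windows follow 5′ to 3′ on the strand of each gene, with every match in capitals. They stop before the first annotated exon (GENCODE M21), except that the Asns match lies inside an exon and is shown with its flanks only.
Gdf15, chr8:70632457-70632656, minus strand: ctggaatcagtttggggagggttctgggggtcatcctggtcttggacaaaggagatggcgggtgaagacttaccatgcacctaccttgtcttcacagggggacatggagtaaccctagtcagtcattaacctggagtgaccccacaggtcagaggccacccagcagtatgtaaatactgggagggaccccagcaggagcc
Chac1, chr2:119351029-119351228, plus strand: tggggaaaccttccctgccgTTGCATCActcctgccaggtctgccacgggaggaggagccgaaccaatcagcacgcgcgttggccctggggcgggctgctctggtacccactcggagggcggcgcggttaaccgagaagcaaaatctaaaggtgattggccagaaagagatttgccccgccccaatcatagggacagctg
Asns, chr6:7693214-7693243, minus strand: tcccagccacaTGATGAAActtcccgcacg
Atf3, chr1:191183341-191183540, minus strand: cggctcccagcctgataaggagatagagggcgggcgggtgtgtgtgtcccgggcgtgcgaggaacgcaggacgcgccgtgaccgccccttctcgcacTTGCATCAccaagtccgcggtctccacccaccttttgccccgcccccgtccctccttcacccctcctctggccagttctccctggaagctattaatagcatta
Slc7a11, chr3:50443615-50443814, minus strand: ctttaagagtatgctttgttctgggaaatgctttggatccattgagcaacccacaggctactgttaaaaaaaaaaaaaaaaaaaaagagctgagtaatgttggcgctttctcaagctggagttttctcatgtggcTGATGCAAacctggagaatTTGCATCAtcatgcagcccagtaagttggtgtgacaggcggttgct

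To ask how the response differed between infarcted and normal hearts, the members were first compared over all cells of each library. Gdf15 was higher in every infarct library than at baseline, while Ddit4, an inhibitor of the growth kinase mTORC1, was lower in every one. The transcripts of the transcription factors Atf4 and Ddit3 were also below baseline in all 3 infarct libraries, so the cytokine and the factors that can induce it lay on opposite sides of baseline. Because the baseline is 1 library, no test was made. A gene was counted as shifted when all 3 infarct libraries lay on the same side of baseline and their mean differed from it at least 2-fold, among genes with at least 10 CPM in either group. Of all 8249 such genes, 2.35% were shifted upward and 7.21% downward. Of the 5 members among them, Gdf15 was shifted upward and Ddit4 downward, and with 5 members these counts cannot be set apart from those shares.

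Gdf15 measured 31.6 CPM at baseline (exact 95% Poisson interval 30.2 to 32.9, which like all such intervals here covers counting error only). It measured 63.9, 128 and 78.6 CPM in infarct replicates 1, 2 and 3. Replicate 2 was the highest, and every infarct library lay above the baseline interval. The infarct mean was 90.1 ± 33.4 CPM (SD, n = 3), a log2 ratio to baseline of 1.51, and it was 1.17 without replicate 2. Over all genes ranked, the median log2 ratio was -0.21, and relative to it Gdf15 stood 1.72 higher. The share of cells with a Gdf15 UMI was 4.47% at baseline and 12.8%, 19.1% and 14.9% in the infarct libraries. Among cells thinned to 4000 UMIs, which removes the difference in depth, the shares were 3.81% against 9.27%, 14.7% and 11.2%. A cell with any Gdf15 UMI held 4.66 of them on average at baseline and 4.25, 5.82 and 4.45 in the infarct libraries. Over all cells pooled, a larger share therefore carried the transcript after infarction, while the UMIs per carrying cell lay on both sides of the baseline value. The part of the mix of cell types in this share was not tested.

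Of the transcription factors, Atf4 measured 156 CPM at baseline (153 to 159) and 97.5, 90.9 and 83.9 CPM in the infarct libraries. The infarct mean of 90.8 ± 6.76 CPM (SD, n = 3) gave a log2 ratio of -0.79. Ddit3 measured 69.2 CPM at baseline (67.3 to 71.2) and 35.8, 52.2 and 35.4 CPM after infarction, a log2 ratio of -0.75. Neither reached a 2-fold difference, and relative to the median of all genes they stood at -0.57 and -0.54. Atf5, a related factor that is also controlled at translation, measured 6.30 CPM against 7.84, 6.57 and 7.63 CPM, with a log2 ratio of 0.22.

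Among the inhibitors of mTORC1, Ddit4 measured 40.4 CPM at baseline (38.9 to 41.9) and 5.51, 6.10 and 8.41 CPM in the infarct libraries. With a log2 ratio of -2.60, it was the member with the largest ratio in either direction. Sesn2, a leucine sensor, went the other way, from 8.21 CPM (7.54 to 8.92) to 16.3, 13.2 and 16.7 CPM. Its log2 ratio of 0.91 missed the 2-fold limit, which it passed with TMM scaling (1.20), as a mean of CPM per cell (1.01) and without infarct replicate 2 (1.01).

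The remaining targets were scarce. Asns, which makes asparagine, measured 0.606 CPM at baseline (0.435 to 0.823) and 1.92, 1.90 and 1.78 CPM in the infarct libraries, a log2 ratio of 1.62 that rested on 41 baseline UMIs. Trib3, a pseudokinase that restrains ATF4, measured 0.769 CPM against 1.32, 0.799 and 0.820 CPM. Chac1, which degrades glutathione, was read as 7 UMIs at baseline and 13, 19 and 8 UMIs after infarction. For Trib3 and Chac1 no difference was detectable at this depth, since the baseline interval of each (0.574 to 1.01 CPM and 0.0416 to 0.213 CPM) took in at least 2 of the 3 infarct libraries.

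**Figure D1:**
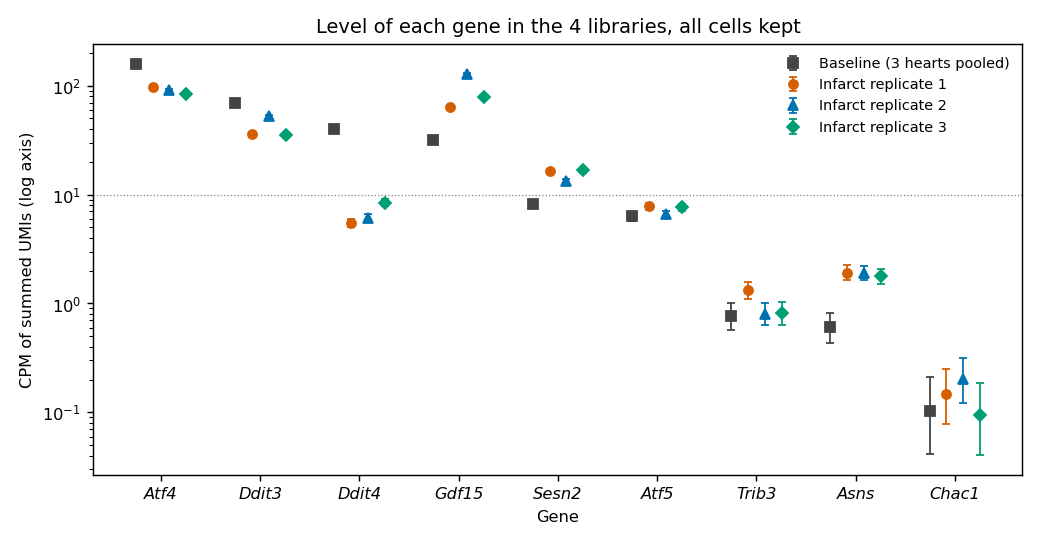
CPM of summed UMIs of each of the 9 genes (log axis) in the baseline library and the 3 infarct libraries, with exact 95% Poisson intervals as bars and a dotted line at 10 CPM. Gdf15 and Ddit4 stand 1.51 above and 2.60 below baseline on the log2 scale, and Atf4 and Ddit3 lie below baseline in all 3 infarct libraries.

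Summed over each list, transcripts that respond to handling and to hormones were also lower after infarction. The 12 dissociation and immediate-early genes summed to 11603 CPM at baseline and 8149, 8132 and 8841 CPM after infarction. Of them, 3 were shifted downward (Egr1, Hspa1a and Hspa1b), while Junb and Ier3 lay above baseline in all 3 infarct libraries. The 6 glucocorticoid targets, a class to which Ddit4 also belongs, summed to 787 CPM against 324, 305 and 390 CPM. Of the 6, 5 (Fkbp5, Tsc22d3, Per1, Zbtb16 and Klf9) were shifted downward, and Sgk1 lay above baseline in all 3 infarct libraries. With the 10% of cells richest in immediate-early UMIs left out of each library, the log2 ratios were 1.53 for Gdf15, -0.73 for Atf4, -0.59 for Ddit3 and -2.66 for Ddit4. The part of glucocorticoid exposure in the level of Ddit4 was not tested.

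The other lists of the pathway showed little of the same movement. None of the 10 ranked ATF4 and CHOP partners and targets, 12 tRNA synthetases under ATF4 or 14 endoplasmic reticulum chaperones was shifted in either direction. Their median log2 ratios were -0.20, -0.16 and -0.27, near the -0.21 of all genes ranked. Of the 14 genes of eIF2, its kinases and its exchange factor, Ppp1r15a and Ppp1r15b were shifted downward, the subunits that direct eIF2 dephosphorylation. None of the 11 ranked p53 targets and none of the 6 mitochondrial stress proteins was shifted. Upward shifts were noted for Vegfa, Slc2a1 and Ankrd37 among 7 ranked hypoxia targets, for Srxn1 among 7 NRF2 targets and for Gpnmb, Ctsd and Ctsl among 8 TFEB and lysosome genes.

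To examine which myeloid types carried the members, cells were gated on marker transcripts alone, none of them a member. Macrophage gates required the macrophage markers at 40 or more UMIs per 10000, and "C1q-low" gates held cells below that. Macrophage gates took 6653 baseline cells and 7806, 9017 and 8370 cells of the infarct libraries. Within them the differences from baseline remained on the same sides. Gdf15 measured 40.4 CPM at baseline and 77.5, 145 and 84.9 CPM after infarction. Atf4 measured 171 CPM against 94.5, 85.9 and 80.1 CPM, Ddit3 86.1 CPM against 38.9, 55.5 and 36.9 CPM, and Ddit4 24.1 CPM against 3.53, 5.04 and 6.31 CPM. The differences in the pooled level were thus also present without monocytes and dendritic cells. The part of the changed mix of macrophage types in them was not tested.

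Among the sorted EGFP+ Ly6G- cells, Gdf15 was read mostly in macrophage-gated cells. After infarction it measured 104, 175 and 107 CPM in reparative macrophage-like cells, which are rich in Gpnmb, Spp1 and Trem2. It measured 121, 154 and 101 CPM in macrophage-like cells with no further marker, and 65.1, 115 and 74.2 CPM in MHC class II macrophage-like cells. Here "no further marker" means that a cell passed the macrophage cut-off and missed the cut-offs of the other macrophage gates. Resident macrophage-like cells (Lyve1, Cd163, Folr2) held 44.5, 165 and 65.7 CPM, interferon-response macrophage-like cells 51.9, 111 and 60.3 CPM, and cycling macrophage-like cells 48.5, 118 and 48.4 CPM. Replicate 2 was the highest library in each of these types, and their ranges overlapped. At baseline these types measured 77.3, 58.6, 36.7, 39.2, 37.2 and 61.9 CPM, in the order given. Every infarct library lay above the baseline of its type except in cycling cells, where replicates 1 and 3 lay below.

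Monocytes and dendritic cells held little of it. Classical monocyte-like cells measured 4.52, 10.7 and 12.7 CPM, type 2 dendritic-like cells 2.30, 17.3 and 5.59 CPM, and mature dendritic-like cells 2.05, 0 and 4.08 CPM. Non-classical monocyte-like cells measured 0, 11.3 and 36.4 CPM. Granulocyte-like cells, which served as a type that should lack the transcript, gave 0, 0 and 2 UMIs in 68, 53 and 95 infarct cells with a median of 2509.5 to 2793 UMIs. Their level was 0, 0 and 7.28 CPM, with upper 95% Poisson limits of 12.3, 27.4 and 26.3 CPM. The monocyte and dendritic levels lay below these limits, except the 36.4 CPM of non-classical monocyte-like cells. With so few UMIs this background cannot tell low levels from none. At baseline 12 Gdf15 UMIs of B cell-like cells all came from 1 of 83 cells.

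The low-C1q cells showed that Gdf15 did not simply follow the macrophage markers. Cells with high Gpnmb and Spp1 and few C1q transcripts held 84.3, 74.2 and 97.2 CPM, levels within the range of the macrophage gates. In contrast, cells with high Saa3 and Arg1 held 23.96, 15.4 and 17.8 CPM inside the macrophage gate and 17.7, 6.31 and 3.26 CPM below it. Transitional macrophage-like cells, which carry classical monocyte markers, held 10.6, 24.95 and 12.1 CPM. At baseline the transitional cells held 21.2 CPM, and the Gpnmb and Spp1 C1q-low cells 98.3 CPM from 50 cells. Neither of these types lay above its baseline level in all infarct libraries.

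In each of 14 types with at least 20 cells in every infarct library, the summed counts were compared with those of all other mononuclear phagocytes of the same hearts (edgeR quasi-likelihood test with the library as a block, Benjamini-Hochberg adjusted p under 0.01). The share of genes called was lowest in transitional (11%), resident (11.7%) and interferon-response (11.9%) macrophage-like cells. It was 15.4% in each of the C1q-low types, and 19.4% to 23.6% in the other macrophage-like types (19.4% with no further marker, 22.6% MHC class II, 23.2% cycling, 23.4% Saa3 and Arg1, 23.6% reparative). It was 21.3% in non-classical and 30.8% in classical monocyte-like cells, and 23.1% in mature and 35% in type 2 dendritic-like cells. Of 112 pairs of a member and a type, 14 were called higher and 15 lower, so as a group the members were called about as often as other genes. Gdf15 was called higher in 1 type and lower in 8. In reparative macrophage-like cells its log2 fold was 0.94 ± 0.07 (SE, 3 of 3 libraries higher, edgeR adjusted p = 0.00015), where 10.2% of genes were called higher. Without the library in the model that call was lost (adjusted p = 0.071). It was lower in type 2 dendritic-like cells (log2 fold -3.64 ± 0.21), classical monocyte-like cells (-3.46 ± 0.20) and Saa3 and Arg1 C1q-low cells (-3.26 ± 0.30). Mature dendritic-like cells (-5.46), transitional macrophage-like cells (-2.56), non-classical monocyte-like cells (-2.37), Saa3 and Arg1 macrophage-like cells (-2.10) and cycling macrophage-like cells (-0.48) completed the list. The call in mature dendritic-like cells rested on 2 UMIs in those cells, and the call in cycling cells was lost without infarct replicate 3 (edgeR adjusted p = 0.021).

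**Figure D2:**
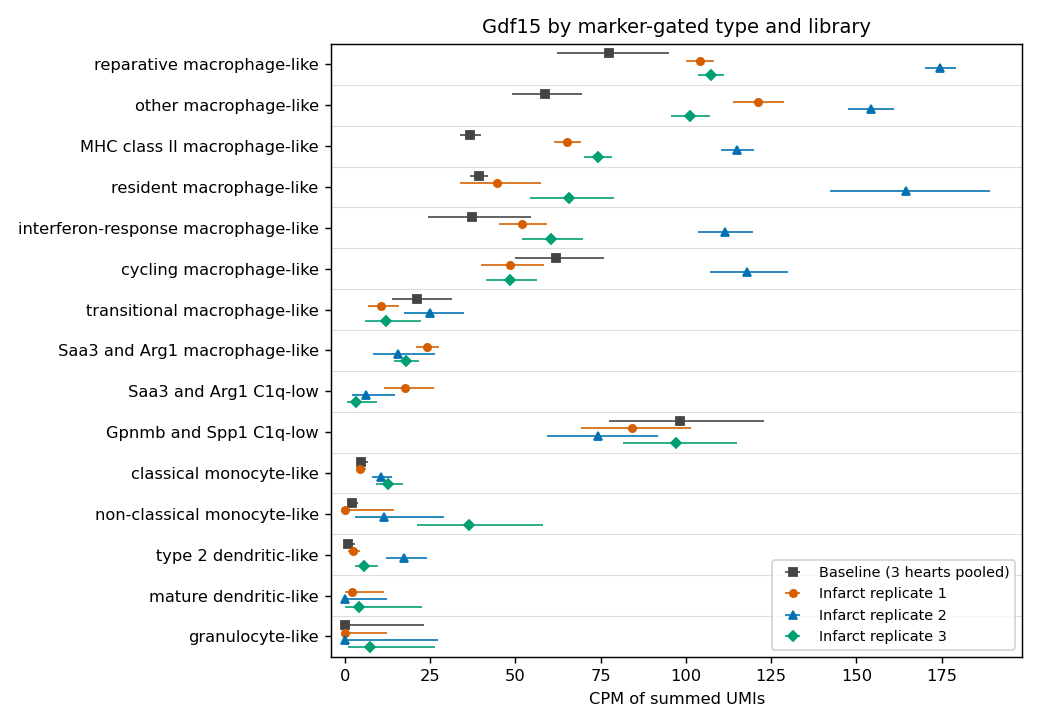
Gdf15 in CPM of summed UMIs for each gated type with at least 20 cells in a library, with symbols for the baseline and infarct libraries and exact 95% Poisson intervals as bars. Macrophage-like types sit above 44 CPM in every infarct library except the transitional and the Saa3 and Arg1 gates, and monocyte, dendritic and granulocyte-like cells sit below 37 CPM.

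Atf4 was distributed differently from Gdf15. In reparative macrophage-like cells it measured 78.3, 76.8 and 65.7 CPM after infarction and 77.3 CPM at baseline (62.15 to 95.01, from 77 cells), so these cells showed no fall. In MHC class II macrophage-like cells it measured 90.4, 87.1 and 79.3 CPM against 169 CPM, and in resident macrophage-like cells 113, 107 and 89.6 CPM against 179 CPM. The difference from baseline within a type was thus seen in these types and not in the reparative one. Reparative macrophage-like cells, low in Atf4, also went from 77 of 6653 macrophage-gated cells at baseline to 2353 of 7806, 3431 of 9017 and 2872 of 8370, and the part of this change in the pooled level was not tested. Immediate-early transcripts differed by type in the same direction, at 12623 CPM in baseline resident macrophage-like cells against 7128 to 8539 CPM in the infarct libraries, and 6686 CPM against 7040 to 7773 CPM in the reparative ones. Their part in the result was not tested.

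Among types after infarction, Atf4 was lower in reparative macrophage-like cells (log2 fold -0.33 ± 0.04, 3 of 3 libraries lower, edgeR adjusted p = 0.0011). It did not pass when infarct replicate 3 was left out (adjusted p = 0.011). Among mononuclear phagocytes the highest levels were noted in Saa3 and Arg1 C1q-low cells, at 223, 134 and 187 CPM (log2 fold 0.87 ± 0.16, edgeR adjusted p = 0.00011), and this call held without each library. Saa3 and Arg1 macrophage-like cells, at 134, 130 and 120 CPM, were also called higher (0.48 ± 0.10), though not without replicate 3 (adjusted p = 0.042), and so were non-classical monocyte-like cells (0.52 ± 0.15), though not without replicate 2 or 3. The phagocytes with the most Atf4 were thus among those with the least Gdf15.

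Ddit3 lay closer to Gdf15. It measured 42.5, 59.0 and 39.7 CPM in MHC class II macrophage-like cells and 55.9, 67.5 and 44.8 CPM in macrophage-like cells with no further marker, and was called higher in each (log2 folds 0.35 ± 0.04 and 0.46 ± 0.07). Both calls were lost without the library in the model (adjusted p = 0.37 and 0.17). It was lower in type 2 dendritic-like cells, at 17.2, 24.6 and 14.9 CPM (log2 fold -1.13 ± 0.12). Classical monocyte-like cells, at 17.6, 32.4 and 17.9 CPM, were lower too (-0.89 ± 0.10), as were Saa3 and Arg1 macrophage-like cells, at 25.1, 29.7 and 20.9 CPM (-0.77 ± 0.12). In reparative macrophage-like cells Ddit3 measured 37.3, 52.2 and 34.8 CPM against 25.8 CPM at baseline (17.4 to 36.8, from 30 UMIs), the one macrophage type of those described in which the infarct libraries did not lie below baseline.

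Ddit4 was highest per UMI in non-classical monocyte-like and type 2 dendritic-like cells among the phagocytes with at least 20 cells per library, although macrophage gates held 1104 of its 2731 baseline UMIs. Non-classical monocyte-like cells measured 200 CPM at baseline and 82.6, 36.8 and 89.8 CPM after infarction, and type 2 dendritic-like cells 107 CPM against 28.4, 28.6 and 48.0 CPM. Resident macrophage-like cells measured 22.5 CPM against 0.767, 3.34 and 2.28 CPM, the latter from 1, 4 and 4 UMIs. The infarct libraries lay below baseline in each of these types. Among types after infarction it was called higher in non-classical monocyte-like cells (log2 fold 3.32 ± 0.31), type 2 dendritic-like cells (2.62 ± 0.15), mature dendritic-like cells (2.01 ± 0.48) and classical monocyte-like cells (0.89 ± 0.16). The first and second of these held without each library. Those in mature dendritic-like and classical monocyte-like cells were lost without replicate 3 (adjusted p = 0.010 and 0.020). It was lower in resident macrophage-like cells (-1.80 ± 0.42), a call lost without replicate 1 or 3.

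**Figure D3:**
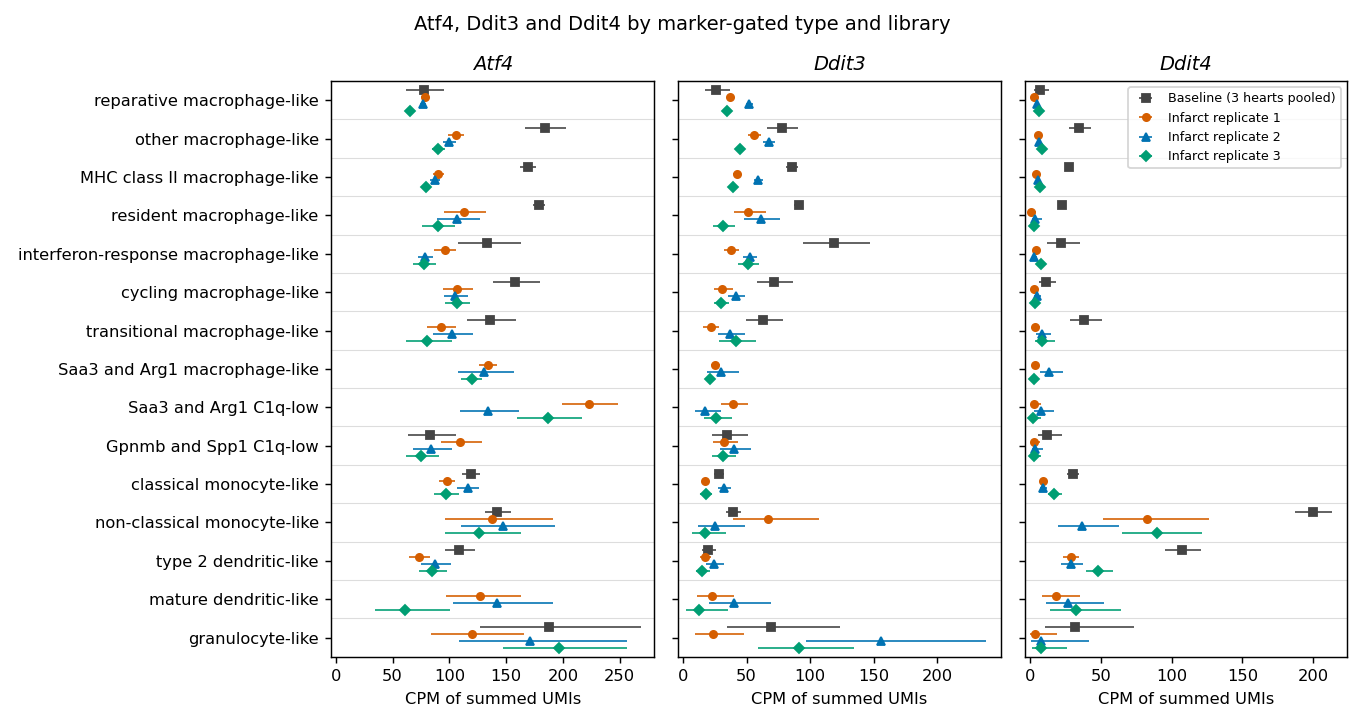
Atf4, Ddit3 and Ddit4 in CPM of summed UMIs for each gated type with at least 20 cells in a library, with symbols for the 4 libraries and exact 95% Poisson intervals as bars. Baseline lies above the infarct libraries in most macrophage types but not in reparative macrophage-like cells for Atf4 and Ddit3, and Ddit4 is highest in non-classical monocyte-like cells.

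Asns, Atf5 and Atf4 were called higher in the Saa3 and Arg1 C1q-low cells, of which there were 245, 87 and 127 in the infarct libraries. Asns measured 13.4, 6.31 and 13.0 CPM there (log2 fold 2.77 ± 0.48, edgeR adjusted p = 7.5e-05), from 19, 5 and 12 UMIs, and Atf5 measured 30.4, 11.3 and 15.2 CPM (1.27 ± 0.31, adjusted p = 0.0028). The call of Asns held without each library, and that of Atf5 was lost without replicate 1 (adjusted p = 0.23). With Atf4 higher and Gdf15 lower, 4 of the 8 members tested in these cells were called, beside 15.4% of all genes. Trib3 gave 19, 0 and 2 UMIs in them and was not called. Of 17 ATF4 and CHOP partners and targets tested in these cells, 5 were called higher and 2 lower, with a median log2 fold of 0.60, and of 12 tRNA synthetases 3 were called higher, with a median of 0.50. The median of all genes was -0.12. Beside them, 7 of 10 hypoxia targets (median 1.55) and 6 of 8 NRF2 targets (median 1.23) were called higher there.

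The other members gave few calls. Asns was higher in Gpnmb and Spp1 C1q-low cells (7.66, 2.62 and 5.67 CPM, log2 fold 1.85 ± 0.48) and lower in MHC class II macrophage-like cells (0.649, 0.813 and 0.588 CPM, -1.27 ± 0.23), and each call was lost without replicate 1 or 3. Sesn2 was higher in type 2 dendritic-like cells, at 25.9, 20.2 and 20.96 CPM (0.57 ± 0.14), a call lost without replicate 1 or 2. Trib3 was lower in MHC class II macrophage-like cells from 9, 6 and 7 UMIs, a call lost without any 1 of the libraries. Chac1 had too few UMIs for the test in any type. Its 13 UMIs in macrophage-gated infarct cells compare with 8 UMIs in the 216 granulocyte-like infarct cells and 5 in the 67 at baseline.

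Over the 62 sums of a type in a library with at least 20 cells, the profile of Gdf15 was most like those of Hpgds (Pearson r = 0.88), Ms4a14 (0.87), Ang (0.85), Apoe (0.84) and Ms4a7 (0.83), among 6004 genes. The correlation is on log2(CPM + 10), across sums that share libraries and hearts, and is given as a description. No other member came near. The value was 0.31 for Ddit3, -0.03 for Atf5, -0.24 for Sesn2, -0.36 for Atf4 and -0.47 for Ddit4.

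To ask whether single macrophages with Gdf15 also carried more of the other members, macrophage-gated cells were brought to an equal depth of 4000 UMIs, shallower cells being left out, and then split into those with and without Gdf15. Gdf15 was unevenly spread among them. It was found in 4.69% of baseline macrophages and in 11.1%, 16.5% and 12.1% of those of the infarct libraries. Cells with 4 or more Gdf15 UMIs made up 1.24% at baseline and 2.50%, 4.99% and 2.69% after infarction, yet held 64.7% and 55.9%, 66.9% and 58.1% of its UMIs. The variance of Gdf15 UMIs per cell was 5.49 to 8.28 times the mean over the 4 libraries, while that of Atf4 was 1.12 to 1.20 times and that of Ddit3 1.21 to 1.44 times. Gdf15 was thus concentrated in few cells while the ratio for Atf4 was close to 1, the value of Poisson counting. Reparative macrophage-like cells made up 44.8%, 48.4% and 46.6% of the Gdf15 cells of all gates in the infarct libraries and 25.5%, 34.6% and 32.3% of all cells of that depth. At baseline 50.9% of the Gdf15 cells were resident macrophage-like, which made up 37.3% of all cells.

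Macrophages with a Gdf15 UMI carried more Ddit3 and more Atf4. Ddit3 measured 60.6 CPM with and 38.3 CPM without Gdf15 in infarct replicate 1, 72.1 and 53.3 CPM in replicate 2, and 45.7 and 37.5 CPM in replicate 3. Atf4 measured 125 and 94.1 CPM, 98.4 and 85.8 CPM, and 95.4 and 77.7 CPM. Each of the 3 libraries was higher with Gdf15 for both genes. The sums held 759, 1330 and 845 cells with and 6051, 6711 and 6148 cells without Gdf15. The same test with the library as a block called 4.68% of the 11577 genes tested, and 3.01% of those tested were called higher. It called 2 of 7 members tested. The log2 fold was 0.47 ± 0.07 for Ddit3 (SE, edgeR adjusted p = 0.00012) and 0.31 ± 0.06 for Atf4 (edgeR adjusted p = 0.00077). Both calls held without each infarct library.

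Both calls rested on the comparison within hearts. Without the library in the model neither passed (adjusted p = 0.50 and 0.42), where 3 genes in all were called, and the DESeq2 Wald test called Ddit3 (adjusted p = 0.0021) but not Atf4 (0.013). At baseline, with 253 cells with and 5139 without Gdf15 and no test, Ddit3 measured 116 against 87.2 CPM and Atf4 220 against 173 CPM.

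Sesn2 measured 21.6 against 16.4, 14.4 against 12.9 and 23.8 against 16.1 CPM, and was not called (log2 fold 0.38 ± 0.12, edgeR adjusted p = 0.046). At baseline it measured 22.9 CPM with and 8.09 CPM without Gdf15. Trib3 (log2 fold 0.89 ± 0.48) and Asns (0.94 ± 0.43) rested on 14 and 20 cells that held both transcripts over the 3 infarct libraries and were not called. Atf5 (0.07 ± 0.18) and Ddit4 (-0.06 ± 0.21) lay near 0, and Chac1 was too scarce to test.

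Counted by cells, 136, 282 and 130 infarct macrophages held both Gdf15 and Ddit3, where the product of the shares gives 101, 240 and 109 cells. Both Gdf15 and Atf4 were held by 262, 391 and 249 cells, beside 223, 359 and 215 cells by the product. The excess was modest, and most macrophages with Gdf15 had no Ddit3 UMI at this depth. Ddit3 was read in 17.9%, 21.2% and 15.4% of macrophages with Gdf15 and in 12.7%, 17.4% and 12.5% of those without.

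Levels were also higher in cells with more Gdf15. From macrophages with no Gdf15 UMI to those with 4 or more, Ddit3 went from 38.3 to 90.1 CPM in infarct replicate 1, from 53.3 to 94.3 CPM in replicate 2 and from 37.5 to 52.1 CPM in replicate 3. Atf4 went from 94.1 to 171, from 85.8 to 103 and from 77.7 to 100.2 CPM. The cells with 4 or more were the highest of the 4 classes for Ddit3 in all 3 infarct libraries, and for Atf4 in replicates 1 and 3. They numbered 170, 401 and 188.

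**Figure D4:**
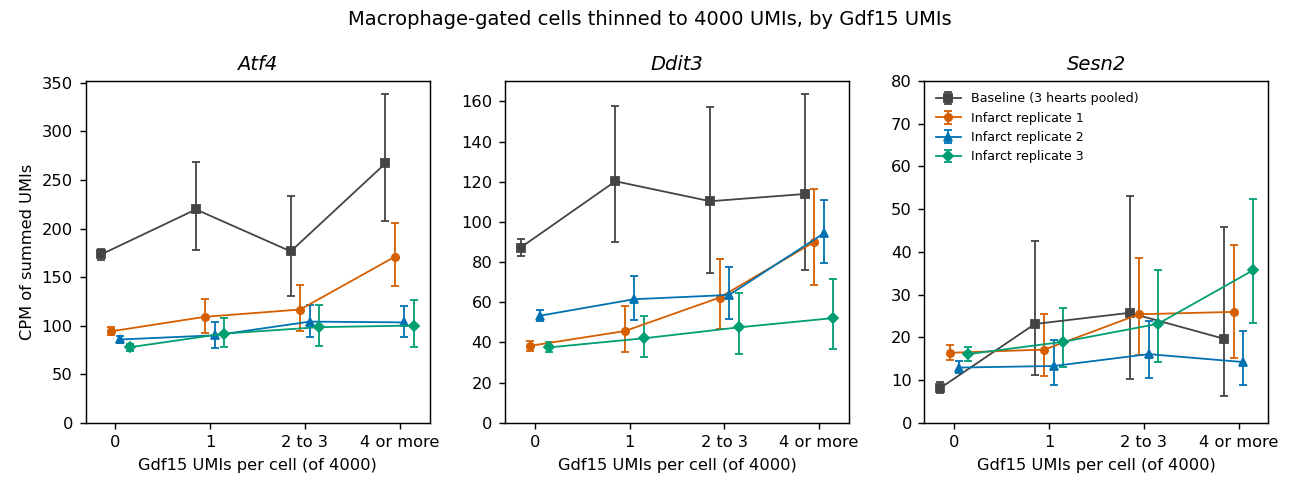
CPM of summed UMIs of Atf4, Ddit3 and Sesn2 in macrophage-gated cells thinned to 4000 UMIs, by the number of Gdf15 UMIs in the cell, with lines for the 4 libraries and exact 95% Poisson intervals as bars. Ddit3 in infarct replicate 1 goes from 38.3 CPM with none to 90.1 CPM with 4 or more, and the baseline intervals are wide because its upper classes hold 67 to 114 cells.

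Macrophages with Gdf15 differed in other ways beside which these values stand. Before thinning their median depth was 9670, 9201.5 and 9792 UMIs, against 9095, 8906 and 9270.5 UMIs without Gdf15. A doublet-score tail was marked, the 8.32%, 8.63% and 8.10% of cells with the highest Scrublet scores in infarct replicates 1, 2 and 3. The automatic cut-off of Scrublet called 0, 0 and 3 cells there. The tail made up 11.9%, 13.8% and 13.7% of macrophages with Gdf15, against 10.0%, 10.3% and 9.92% of those without. The immediate-early genes summed to 10147, 10209 and 11095 CPM against 8590, 8036 and 9189 CPM. The reparative markers summed to 3550, 3263 and 3175 CPM against 2666, 2921 and 2509 CPM, and the MHC class II markers to 16617, 16339 and 16087 CPM against 22019, 19970 and 18754 CPM. The Saa3 and Arg1 markers summed to 1648, 246 and 597 CPM with against 3444, 365 and 1555 CPM without Gdf15, and the classical monocyte markers to 401, 333 and 349 CPM against 961, 600 and 613 CPM. The part of these differences in the folds was not tested. Over all macrophages, Ddit3 and Atf4 were still called without the doublet-score tail (edgeR adjusted p = 0.00033 and 0.0019). Both were also called without the cells richest in immediate-early UMIs (0.0011 for each).

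Within single types the difference was called in 2 of the 4 types tested. In reparative macrophage-like cells, where 2.15% of genes were called, the log2 fold was 0.40 ± 0.09 for Ddit3 (edgeR adjusted p = 0.0093) and 0.35 ± 0.08 for Atf4 (edgeR adjusted p = 0.0051). Ddit3 lost this call without any 1 of the 3 libraries, and Atf4 without replicate 1 or 3. Without the doublet-score tail neither passed (edgeR adjusted p = 0.014 for Ddit3 and 0.0145 for Atf4). Without the cells richest in immediate-early UMIs Ddit3 did not pass (0.020). In macrophage-like cells with no further marker, where 1.87% were called, it was 0.63 ± 0.15 for Ddit3 and 0.66 ± 0.11 for Atf4 (edgeR adjusted p = 2.1e-05). That of Atf4 held without each library, and that of Ddit3 was lost without replicate 1 or 2 and without the cells richest in immediate-early UMIs (adjusted p = 0.043). With DESeq2, Atf4 in this type was the one of these 4 calls that passed (adjusted p = 0.0053). Without the library in the model it was again the one that passed (edgeR adjusted p = 0.0020). Ddit3 in this type (0.12) and Atf4 (0.28) and Ddit3 (0.52) in reparative cells did not. The same held with thinning to 2000 UMIs (edgeR adjusted p = 0.0097). There Ddit3 gave 0.48 in reparative cells and 0.29 in this type, and Atf4 0.027 in reparative cells. Without thinning Ddit3 passed in neither type (edgeR adjusted p = 0.021 and 0.031). With another thinning seed it did not pass in reparative cells (0.018). In MHC class II macrophage-like cells Ddit3 (0.38 ± 0.14) and Atf4 (0.28 ± 0.11) were higher in 3 of 3 libraries and not called, although Ddit3 was called with another thinning seed (adjusted p = 0.0019) and Atf4 without thinning (0.0074). In interferon-response macrophage-like cells neither was called. These tests called 2.06% and 0.461% of genes. Atf4 in interferon-response cells had a log2 fold of 0.07 and was lower with Gdf15 in replicate 3, at 60.9 against 87.8 CPM. Resident macrophage-like cells, with 12, 14 and 14 cells with Gdf15, were not tested. There Atf4 was lower with Gdf15 in 3 of 3 libraries, at 87.4 against 126, 112 against 137 and 55.7 against 91.2 CPM, while Ddit3 was higher in 3 of 3. Whether the fold differs between these types was not tested.

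Of the wider pathway, part of the ATF4 and CHOP partners and targets rose with Gdf15. In macrophages 5 of 16 tested were called higher and none lower, with a median log2 fold of 0.21 beside -0.01 for all genes tested. They were the transcription factors Atf3 (0.65) and Cebpb (0.24) and the amino acid transporters Slc7a11 (1.70), which imports cystine, Slc3a2 (0.43), its heavy chain, and Slc38a2 (0.22). The call of Slc38a2 was lost without replicate 2 or 3 and that of Cebpb without replicate 3 (adjusted p = 0.010). Phgdh, the first enzyme of serine synthesis, had the lowest fold of the list (-0.75) and was not called. None of the 12 tRNA synthetases (median 0.11), 14 endoplasmic reticulum chaperones (-0.01) or 6 mitochondrial stress proteins (0.15) was called. Of the 14 genes of eIF2, its kinases and its exchange factor, Ppp1r15a was called higher (0.24), a call lost without replicate 2. Of the genes of the receptor and the convertases that process the Gdf15 protein, Furin alone had enough counts, and its log2 fold of 0.23 lost its call without replicate 2 or 3.

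Larger counts were noted outside the eIF2 pathway. All 7 NRF2 targets tested were called higher, with a median log2 fold of 0.75. Hmox1, which degrades heme, rose by 1.09 and Gclm, of glutathione synthesis, by 0.91, while Gclc (0.52) and the heme transporter Slc48a1 (0.38) rose least. The call of Gclc was lost without replicate 2. Of 12 p53 targets, 6 were called higher (Cdkn1a, Mdm2, Bbc3, Phlda3, Bax and Plk2) and Sesn1 lower (-0.36), with a median of 0.38. Phlda3 had the largest fold (0.85), and its call and that of Sesn1 were lost without replicate 2. The p53 targets had shown no shift between infarct and baseline.

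Of 8 TFEB and lysosome genes 4 were called higher, Sqstm1 (0.83), Gpnmb (0.42), Ctsd (0.29) and Ctsb (0.22), of which Gpnmb is also a marker of the reparative gate. Of 12 immediate-early genes 8 were called higher, with a median of 0.24 (Jun not without replicate 1), and 1 of 6 glucocorticoid targets, Sgk1 (0.55). None of 9 hypoxia targets was called (median -0.16). Inside reparative macrophage-like cells 5 of 7 NRF2 targets, 4 of 13 ATF4 and CHOP partners and targets and 3 of 12 p53 targets were still called higher, beside 1.77% of all genes. Lists that share a direction were not tested against each other.

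**Figure D5:**
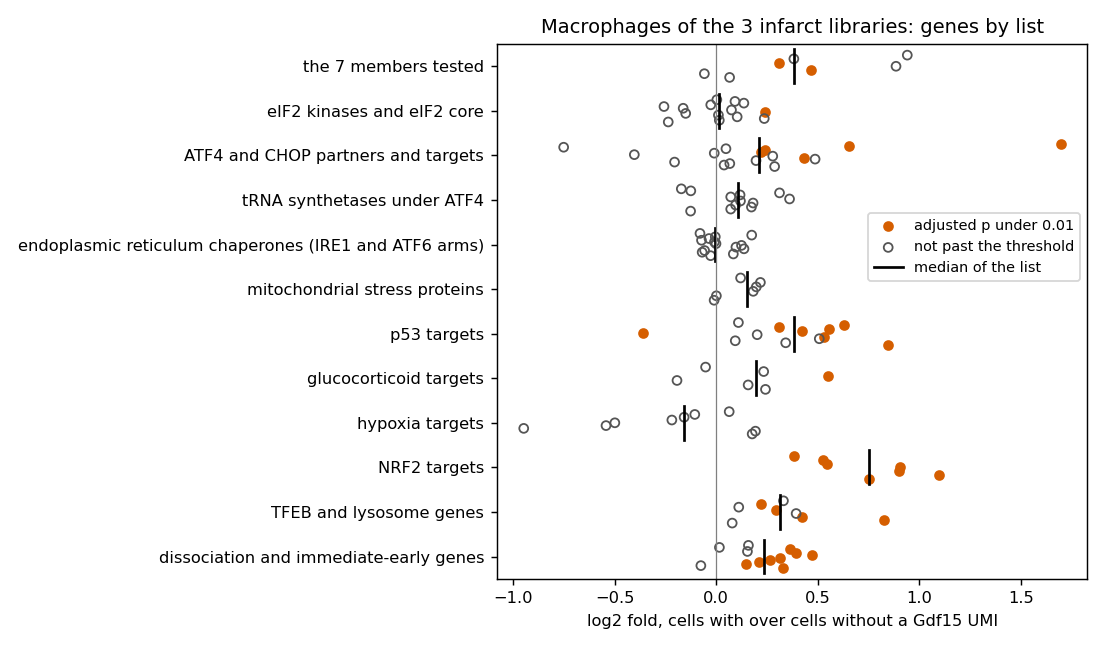
Log2 fold of cells with over cells without a Gdf15 UMI (macrophages of the 3 infarct libraries, thinned to 4000 UMIs) for the 7 members tested and the genes of 11 lists, with filled points for an adjusted p under 0.01 and a bar at each list's median. All 7 NRF2 targets are filled and lie at 0.38 or above, while the tRNA synthetases, chaperones and hypoxia targets hold no filled point.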

How the data were processed

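Cells were EGFP+ Ly6G- cells of the heart in 4 droplet libraries. The deposited matrices hold raw UMI counts per gene and cell that the authors made with Cell Ranger (3.1.0 per the file headers) against mm10, with nothing normalized, and replicates were not pooled after sequencing. The study's filter of 500 to 40000 UMIs and over 200 genes was applied, and the integration used in the study was not. Members and gene lists were chosen with earlier results of these data known. Members were looked up by symbol. Named genes were the 5 with the largest fold in each direction among those called and changed the same way in 3 of 3 libraries, and the 5 most like Gdf15.

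Cells were gated by summed marker UMIs per 10000. Cells were scored for doublets with Scrublet. All were kept, except in an alternative that left out a set share with the highest scores. With 1 baseline library, infarct against baseline has no test, and the infarct libraries are separate hearts. Types, and macrophages with against without a Gdf15 UMI (thinned to 4000 UMIs), were compared on UMI counts summed per infarct library with edgeR 4.0.16 in R 4.3.3 (quasi-likelihood test, TMM, filterByExpr, Benjamini-Hochberg over all genes tested, threshold 0.01). The library was a block because both sums of a pair come from 1 heart. Deviations of such sums correlated at 0.63 to 0.81. Cells are not replicates, and both sums of a pair share a library. DESeq2 1.42.0 was an alternative. Sequences are RefSeq, GRCm38.p6. Scripts were tested on simulated data.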

Additional observations from a re-analysis of the deposited data

Results flagged for a closer look

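Cells that met no gate also held Gdf15. They are part of the comparison of infarct with baseline over all cells, but enter none of the tests by type or by Gdf15 UMI. There were 1126 of them at baseline and 622, 531 and 573 in the infarct libraries. Gdf15 measured 27.1 CPM at baseline and 52.0, 73.3 and 89.5 CPM after infarction, with an infarct mean of 71.6 CPM, above the level of the granulocyte-like cells. Their median depth was 1811.5 UMIs at baseline and 6185 to 7892 UMIs in the infarct libraries.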

How the results depend on the processing

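Pairs of a member and a type called numbered 29, with 20 to 32 when 1 infarct library was left out. Without the replicate block, that is without pairing the 2 sums of a heart, 19 were called, 18 of them among the 29. For macrophages with Gdf15, the 2 members called stayed at 2 with any library left out, became 0 without the replicate block and 1 with DESeq2. Over all genes 542 were called there, against 3 without the block (998 at an unadjusted p under 0.05, beside 2193 with it), 268 with DESeq2, 1014 without thinning and 317 with thinning to 2000 UMIs. Without the filter on low counts 777 were called, 390 higher and 387 lower, against 349 and 193. Between infarct and baseline, 2 members were shifted, and 2 to 3 with a library left out. TMM moved the median log2 ratio of all genes from -0.21 to 0.10 and turned no member. The log2 fold of Ddit4 with against without a Gdf15 UMI turned to 0.043 without thinning and 7.01e-05 with another seed, and ranged from -0.193 to 0.0998 with a library left out, above 0 without infarct replicate 3. That of Atf5 with against without a Gdf15 UMI ranged from -0.0301 (without infarct replicate 3) to 0.185, and that of Egr1 with against without a Gdf15 UMI turned to -0.048 without thinning (0.21 with it). The cause was not tested. Depth limits Chac1, Trib3 and Asns most.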

Other observations

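Beside the members, the genes with the largest folds between infarct macrophages with and without Gdf15 were Slc40a1, Slc7a11, Adra1a, Procr and Hmox1 upward and Klk8, Lyve1, Retnla, Cxcl13 and Fgfr1 downward. Slc40a1, the iron exporter ferroportin, measured 77.1, 55.9 and 78.1 CPM with Gdf15 and 16.3, 24.2 and 19.8 CPM without (log2 fold 1.76 ± 0.13, edgeR adjusted p = 4.2e-09, higher in 3 of 3 libraries). It held without each library and without the block (adjusted p = 0.0044). Procr lost its call without infarct replicate 2 or 3, and Klk8 and Cxcl13 lost theirs without replicate 3. Klk8 measured only 0.342, 0.195 and 0 CPM with Gdf15, against 1.76, 0.926 and 4.11 CPM without. Cxcl13 measured 2.40, 0 and 1.22 CPM against 5.88, 0.502 and 7.96 CPM. DESeq2 gave no adjusted p for Adra1a, Procr, Klk8, Cxcl13 or Fgfr1. Lyve1 (log2 fold -2.67) and Retnla (-2.08) are markers of the resident gate, and Retnla was not called with DESeq2 (adjusted p = 0.59). Without the block only Slc40a1 and Slc7a11 of the 10 genes were called.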
